A study of Mus musculus with 40 samples.

Results

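The actin cytoskeleton genes described here are *Acta1*, *Acta2*, *Actg2*, *Tagln*, *Cnn1*, *Cnn2*, *Myl9*, *Tpm1*, *Tpm2* and *Vcl*, a set of 10 of the 55536 genes counted. They were chosen by name as smooth-muscle actin genes and targets of the SRF-MRTF transcription factors, with earlier results of these data known. Shares of the set given beside those of all genes are therefore a description and not a test of the set. RNA-seq was performed on poly(A) RNA of mouse embryonic stem cells (mESCs), pluripotent cells from the early embryo. The cells were 2 biological replicates of WT cells, the clones D1, G2 and H5 with a *Ccnc* KO, and the clones B9, C8 and H4 with a *Cdk8* KO. Each replicate or clone was treated for 4 h with DMSO or with 900 nM AZD6738, an inhibitor of the checkpoint kinase ATR (ATRi). Cyclin C, the product of *Ccnc*, and CDK8 belong to the kinase module of Mediator, the complex that links transcription factors to RNA polymerase II. All knockout cells came from a Cas9-expressing *Atm* WT mESC line edited with synthetic guide RNAs, each clone is 1 cell line, and all cells grew on gelatin in medium with serum and LIF. The WT libraries were sequenced in 2 multiplexes, with the *Ccnc* KO libraries and again with the *Cdk8* KO libraries, so the comparisons of both knockouts rest on the same WT cells.

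Serum response factor (SRF) is a DNA-binding protein that recognises the CArG box, a short A/T-rich element flanked by CC and GG. Its coactivators of the MRTF family are held in the cytoplasm by monomeric actin and enter the nucleus when actin polymerises, which couples the expression of contractile and cytoskeletal genes to the state of the actin cytoskeleton. A separate set of SRF cofactors, the TCF proteins, answers to MAP kinase signalling and drives immediate early genes such as *Egr1* and *Fos*. In smooth muscle and myofibroblasts the genes in this set build the contractile apparatus, and several of them are also used for stress fibres in other cells.

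Libraries held 30899823 to 67274049 counts (median 41972557). The library of WT replicate 2 under ATRi was left out of every comparison except the fits named as using all 4 WT libraries, which leaves 9 libraries per multiplex. In *Ccnc* KO libraries *Ccnc* was at 4.24 to 7.40 CPM (counts relative to the library total, after edgeR's TMM scaling), against 43.6 to 45.1 in WT. In *Cdk8* KO libraries *Cdk8* was at 52.3 to 64.6 CPM against 71.2 to 78.6 in WT, so the RNA level of the targeted gene was lower but still high. The summed level of 8 mESC markers, such as *Pou5f1* and *Nanog*, was 2910 to 4314 CPM over all libraries used, with none at 0.

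Promoter sequence was matched in the RefSeq table (build GRCm38.p6, 250 bases before to 50 after the transcript start) for 8 of the 10 genes, all except *Actg2* and *Tagln*. A full CArG box was present in 4 of the 8, against 535 of 32851 promoters of the same length (1.63%) and 5 of 24 other SRF-MRTF targets (20.8%). The pattern searched for is its own reverse complement, so a search of 1 strand covers both, although a single box can read differently on the other strand. Stretches before the transcript start are shown for these 4 genes with the box in capitals, because this is the element that SRF is known to bind.
Acta1, chr8:123894799-123894888, minus strand: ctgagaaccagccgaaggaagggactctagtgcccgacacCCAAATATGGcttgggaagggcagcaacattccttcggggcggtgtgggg
Cnn2, chr10:79988504-79988593, plus strand: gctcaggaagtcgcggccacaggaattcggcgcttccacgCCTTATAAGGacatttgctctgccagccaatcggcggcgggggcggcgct
Myl9, chr2:156775263-156775352, plus strand: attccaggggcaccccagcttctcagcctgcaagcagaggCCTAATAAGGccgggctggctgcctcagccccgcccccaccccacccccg
Vcl, chr14:20929148-20929220, plus strand: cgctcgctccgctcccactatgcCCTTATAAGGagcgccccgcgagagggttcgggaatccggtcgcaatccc

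Counted from the transcript start, the boxes begin at -73 in *Acta1*, -56 in *Cnn2*, -161 in *Myl9* and -227 in *Vcl*. *Acta2* had no full box, but held 2 CArG-like boxes, in which 1 of the 6 middle letters is C or G, beginning at -84 and -34. Its stretch is shown because *Acta2* had the largest fold changes among these genes.
Acta2, chr19:34255374-34255497, minus strand: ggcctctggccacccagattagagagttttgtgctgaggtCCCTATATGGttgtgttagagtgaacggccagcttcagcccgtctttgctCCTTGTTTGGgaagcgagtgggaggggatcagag
CArG-like boxes, a search added after the promoters were seen, were present in 3 of the 8 genes (*Acta1*, *Acta2* and *Myl9*, 37.5%), in 2792 of 32851 promoters (8.5%) and in 2 of 24 other SRF-MRTF targets (8.33%). *Cnn1*, *Tpm1* and *Tpm2* had neither kind of box in this window. A match is a description of the sequence, and binding was not measured.

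In WT cells the genes spanned a wide range of levels per kb of exon, from *Cnn2* down to *Actg2*. In the 3 WT libraries of the *Ccnc* multiplex the mean was 38.0 CPM per kb for *Cnn2*, 15.4 for *Tpm1*, 12.9 for *Vcl* and 6.78 for *Tpm2*, which are widely expressed cytoskeletal genes. *Myl9* followed at 5.13, *Tagln* at 2.26, *Acta2* at 0.784, *Cnn1* at 0.446, *Acta1* at 0.217 and *Actg2* at 0.0369 CPM per kb, genes known best from muscle. The order was the same in the *Cdk8* multiplex. Neighbours in this order did not overlap between libraries, except that *Myl9* (3.75 to 6.72 CPM per kb) and *Tpm2* (6.59 to 7.14) did in both multiplexes. The lowest members rest on few reads, 54 to 81 counts per WT library for *Acta2*, 37 to 62 for *Cnn1*, 11 to 19 for *Acta1* and 1 to 6 for *Actg2*.

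In *Ccnc* KO cells, 6 of the 9 genes that passed the filter on low counts rose, *Acta1*, *Acta2*, *Tagln*, *Cnn1*, *Myl9* and *Tpm2*, and none fell. The threshold was an adjusted p under 0.05 in edgeR's quasi-likelihood test with treatment as a covariate, and 7.01% of all 18577 genes tested were called higher by it. *Acta1*, *Acta2*, *Tagln*, *Cnn1* and *Myl9* rose by more than 2-fold, as did 1.62% of all genes tested. The median log2 fold change was 1.28 over the 9 genes and 0.00 over all genes tested. The edgeR fit takes the 2 libraries of a clone as separate samples. With clone as a random effect in limma the same 6 genes were called, with 1028 of 18577 genes called higher. The limma adjusted p was then 0.028 for *Acta1* and 0.000145 for *Acta2*. With DMSO libraries alone edgeR called 5 genes, without *Cnn1* (adjusted p = 0.0557), and 357 of 17067 genes were called higher. Every *Ccnc* KO library was above each of the WT libraries used for 7 of the 9 genes (all but *Cnn2* and *Vcl*), as was the case for 7.53% of all genes tested. For *Tpm1* the WT library left out, at 123 CPM, was above the lowest *Ccnc* KO library, at 105 CPM.

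In *Cdk8* KO cells the fitted fold changes and the spread between clones were both larger, and 0 of the 10 genes passed the threshold. Their unadjusted p was under 0.05 for 6 of 10 (*Acta1*, *Acta2*, *Tagln*, *Cnn1*, *Myl9* and *Tpm2*), as it was for 21.3% of all genes, and DESeq2 called 4 (*Acta1*, *Acta2*, *Tagln* and *Cnn1*, adjusted p 0.000271 to 0.0138) where it called 3.15% of all genes higher. Both counts, like the edgeR knockout effects in both multiplexes, take the 2 libraries of a clone as separate samples. With clone as a random effect in limma, 0 of the 10 had an unadjusted p under 0.05 (13.3% of all genes did), and *Acta2* had a log2 fold change of 4.13 with an adjusted p of 0.574. Under edgeR 2.28% of 18721 genes were called higher, and 0.908% by more than 2-fold. *Actg2* passed the filter on low counts through clone H4 alone, and the median log2 fold change over the other 9 genes was 1.94, against 0.01 over all genes tested. Every *Cdk8* KO library was above each of the WT libraries used for *Acta1*, *Acta2* and *Tagln* alone, a share of 3 of 10 against 6.59% of all genes tested. The WT library left out had 0.688 CPM of *Acta1* and 9.28 of *Tagln*, above clone B9 under DMSO at 0.536 and 5.50. Its 3.66 CPM of *Acta2* was below all *Cdk8* KO libraries. Bulk RNA was measured, so more cells of a type and more RNA per cell cannot be told apart.

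**Figure D1:**
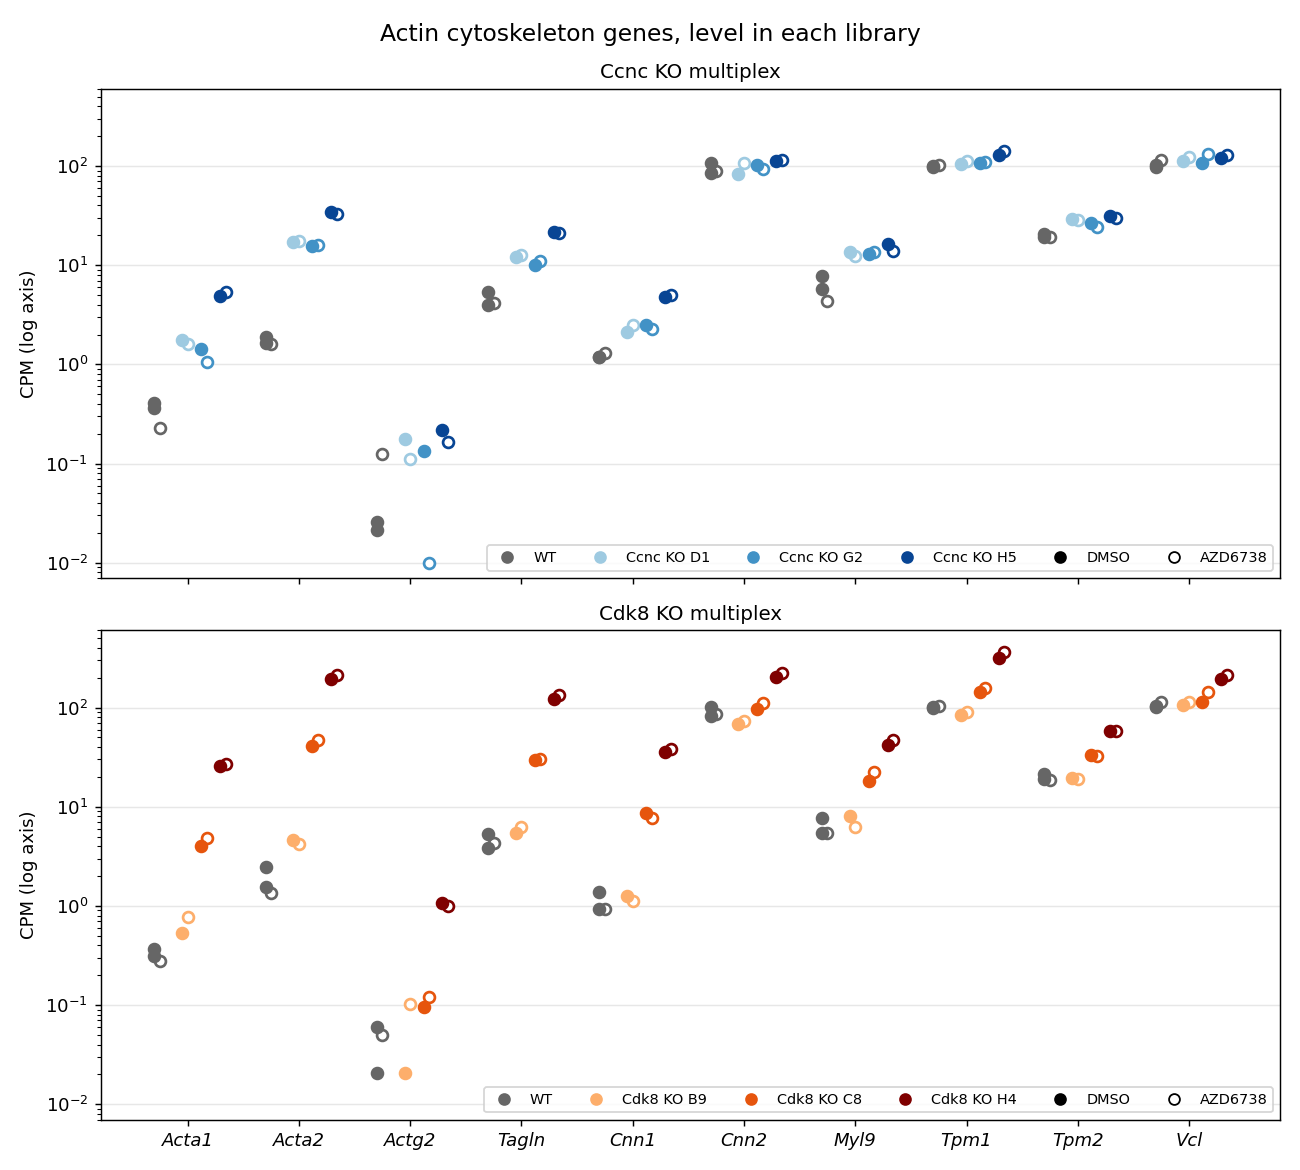
Level of each gene in CPM (log axis) in every library used, with the *Ccnc* KO multiplex above and the *Cdk8* KO multiplex below. Filled points are DMSO and open points AZD6738, and the *Actg2* value of 0 in clone G2 under AZD6738 is drawn at the lower edge. Clone H4 is the highest of its multiplex for all 10 genes, and clone H5 the highest *Ccnc* KO clone for *Acta1*, *Acta2*, *Tagln* and *Cnn1*.

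The alpha-actin genes encode muscle-type actins, the monomers of the thin filament. *Acta2* (smooth-muscle alpha-actin, ENSMUSG00000035783) had 1.61, 1.66 and 1.90 CPM in the WT libraries of the *Ccnc* multiplex. In the 6 *Ccnc* KO libraries it ranged from 15.7 to 34.3 CPM, with a median of 17.5. There was no overlap, and the log2 fold change was 3.72 (SE 0.32, adjusted p = 4.80e-06 by edgeR). Under DMSO the mean was 22.4 ± 10.3 CPM (SD, n = 3 clones). *Acta2* had 1.36, 1.55 and 2.46 CPM in the WT libraries of the *Cdk8* multiplex. Its level in the 6 *Cdk8* KO libraries was 4.23 to 211 CPM, with a median of 44.0. Again the groups did not overlap, but knockout libraries spread over a much wider range, and the log2 fold change of 5.56 (SE 1.55) had an edgeR adjusted p of 0.0731.

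*Acta1* (skeletal-muscle alpha-actin, ENSMUSG00000031972) had 0.229, 0.360 and 0.409 CPM in WT libraries and 1.07 to 5.33 CPM (median 1.69) in *Ccnc* KO libraries, with a log2 fold change of 3.06 (SE 0.59, edgeR adjusted p = 0.00343). Beside *Cdk8* KO its WT levels were 0.276, 0.309 and 0.365 CPM, and the knockout levels were 0.536 to 27.1 CPM (median 4.41). The lowest *Cdk8* KO library was thus near WT, and the log2 fold change was 5.04 (SE 1.55, edgeR adjusted p = 0.0989). Transcripts of the actin family are alike, and 2.02% of the 50-base stretches of *Acta1* and 0.326% of those of *Acta2* also occur in another gene, chiefly *Actb*, *Actg1* and actin pseudogenes.

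*Actg2* (enteric smooth-muscle gamma-actin, ENSMUSG00000059430) was near the limit of detection. It had 1 to 6 counts in the WT libraries and 0 to 11 in the *Ccnc* KO libraries, failed the filter on low counts there and was not tested. In the *Cdk8* multiplex it had 1 or 2 counts in WT libraries, 1 to 8 in clones B9 and C8, and 41 and 45 in the libraries of clone H4. Over its libraries together, clone H4 had 86 counts against 5 in WT, a ratio of 24.9 after scaling by library size (95% exact binomial interval 10.3 to 78.6, counting error only). The fitted value for the 3 clones together had an edgeR adjusted p of 0.245.

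*Tagln* and the calponins encode actin-binding proteins related to each other. *Tagln* (transgelin or SM22-alpha, ENSMUSG00000032085), a widely used early marker of smooth-muscle differentiation, had 3.98, 4.19 and 5.32 CPM in WT libraries and 10.1 to 21.7 CPM (median 12.4) in *Ccnc* KO libraries. All knockout libraries were above WT, with a log2 fold change of 1.74 (SE 0.25, edgeR adjusted p = 0.000496). *Tagln* had 3.84, 4.30 and 5.26 CPM in the WT libraries run with *Cdk8* KO, and 5.50 to 134 CPM (median 30.1) in the knockout libraries. The log2 fold change was 3.60 (SE 1.15, edgeR adjusted p = 0.108).

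*Cnn1* (calponin 1, ENSMUSG00000001349), the smooth-muscle calponin, had 1.18, 1.18 and 1.29 CPM in WT libraries and 2.11 to 5.01 CPM (median 2.49) in *Ccnc* KO libraries. The log2 fold change was 1.40 (SE 0.30, edgeR adjusted p = 0.00698). Beside *Cdk8* KO, WT libraries had 0.928, 0.930 and 1.37 CPM and knockout libraries 1.12 to 37.9 CPM (median 8.10), which overlapped. The log2 fold change there was 3.86 (SE 1.28, edgeR adjusted p = 0.121).

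*Cnn2* (calponin 2, ENSMUSG00000004665), a calponin expressed in many cell types, had 85.1, 89.0 and 107 CPM in WT libraries and 82.1 to 114 CPM (median 105) in *Ccnc* KO libraries. These ranges overlapped, with a log2 difference of 0.12 (SE 0.098, edgeR adjusted p = 0.450) that was -0.11 without WT replicate 1. The WT libraries of the other multiplex had 82.8, 86.0 and 102 CPM and the *Cdk8* KO libraries 69.1 to 223 CPM (median 104). The log2 difference of 0.51 (edgeR adjusted p = 0.490) was -0.05 without clone H4.

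*Myl9* (ENSMUSG00000067818) encodes the regulatory light chain of smooth-muscle and non-muscle myosin II, whose phosphorylation switches contraction on. Its WT levels were 4.36, 5.73 and 7.81 CPM, and *Ccnc* KO levels were 12.4 to 16.4 CPM (median 13.6). Among the genes called it had the smallest spread between *Ccnc* KO clones, with a log2 fold change of 1.28 (SE 0.13, edgeR adjusted p = 2.86e-05). *Myl9* in the WT libraries of the *Cdk8* multiplex was at 5.43, 5.49 and 7.66 CPM and overlapped with the knockout libraries, at 6.20 to 47.3 CPM (median 20.3). The log2 fold change there was 1.94 (SE 0.65, edgeR adjusted p = 0.125).

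Tropomyosins run along actin filaments and regulate the access of myosin. *Tpm2* (ENSMUSG00000028464) had 19.2, 19.2 and 20.8 CPM in WT libraries and 24.3 to 31.6 CPM (median 28.9) in *Ccnc* KO libraries. The groups did not overlap, and the log2 fold change of 0.55 (SE 0.083, edgeR adjusted p = 0.000667) was less than 2-fold. For *Cdk8* KO the WT libraries had 18.6, 19.2 and 21.2 CPM and the knockout libraries 18.8 to 58.1 CPM (median 32.9), with a log2 difference of 0.91 (SE 0.38, edgeR adjusted p = 0.203). *Tpm1* (ENSMUSG00000032366) had 98.0, 99.9 and 102 CPM in WT libraries and 105 to 143 CPM (median 112) in *Ccnc* KO libraries. The libraries of *Tpm1* used in the fit did not overlap either, but its log2 difference was only 0.23 (SE 0.087) with an edgeR adjusted p of 0.0978. In *Cdk8* KO libraries *Tpm1* had 83.5 to 359 CPM (median 150) against 98.1 to 103 in WT, with a log2 difference of 0.90 (edgeR adjusted p = 0.302).

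*Vcl* (vinculin, ENSMUSG00000021823) connects actin filaments to focal adhesions and cell junctions. Its WT levels were 98.6, 103 and 116 CPM and its *Ccnc* KO levels 106 to 133 CPM (median 122). The ranges overlapped and the log2 difference was 0.16 (SE 0.057, edgeR adjusted p = 0.0732). Next to *Cdk8* KO, WT libraries had 102, 105 and 115 CPM and knockout libraries 105 to 215 CPM (median 129), with a log2 difference of 0.43 (edgeR adjusted p = 0.302). Of the 4 genes with a full CArG box in the promoter stretches above, *Acta1* and *Myl9* were called in *Ccnc* KO cells, and *Cnn2* and *Vcl* were not.

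**Figure D2:**
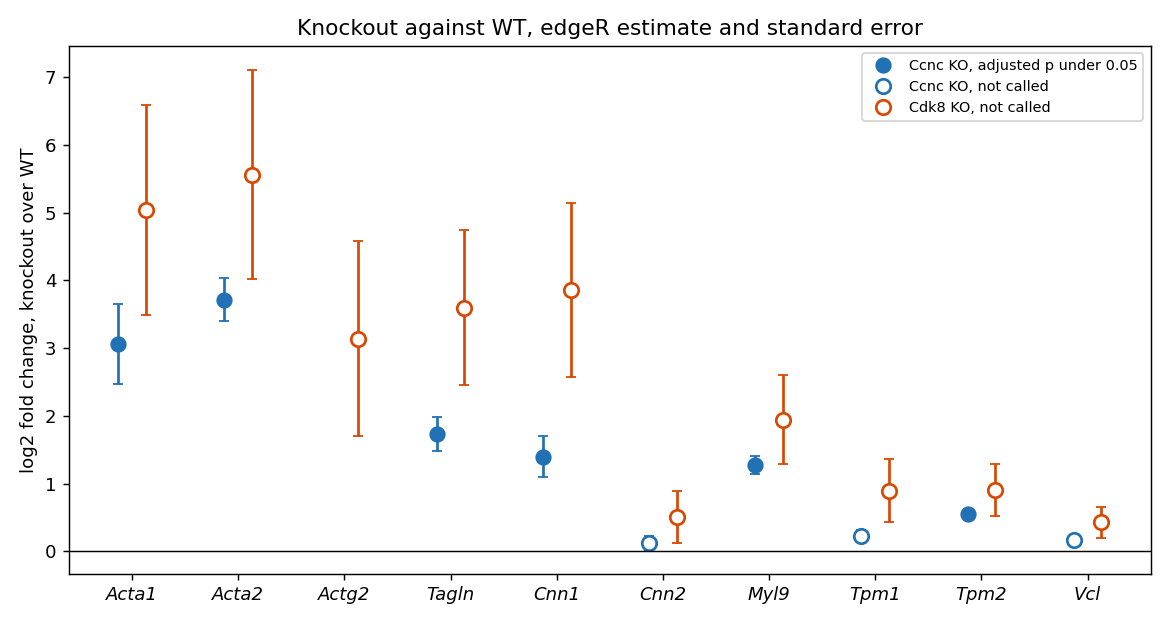
Log2 fold change of each gene in knockout over WT cells by edgeR, with its standard error, for *Ccnc* KO (blue) and *Cdk8* KO (orange). Filled points have an adjusted p under 0.05, which 6 of 9 genes reached in *Ccnc* KO and 0 of 10 in *Cdk8* KO, where the standard errors of *Acta1* and *Acta2* were 1.55.

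Single cell lines decided several of these calls. Without clone B9 the number of genes called in *Cdk8* KO cells was 6 of 10 (*Acta1*, *Acta2*, *Tagln*, *Cnn1*, *Myl9* and *Tpm2*, with 4.52% of all genes called higher), and without clone H4 it was 1 of 9 (*Acta2*, log2 fold change 3.77, edgeR adjusted p = 0.0391, with 3.79% of all genes). With all 4 WT libraries 2 genes were called, *Acta1* and *Acta2*, as were 3.55% of all genes in that direction. In *Ccnc* KO cells 2 of 9 genes were called without WT replicate 1 (*Acta2* and *Myl9*), a fit that keeps 1 WT library and calls 0.652% of all genes higher. The log2 fold changes of the 4 genes that lost their call were then 2.92 for *Acta1*, 1.47 for *Tagln*, 1.43 for *Cnn1* and 0.61 for *Tpm2*, against 3.06, 1.74, 1.40 and 0.55 with both replicates. *Tpm1* and *Vcl* were called in addition without clone D1, where 7.73% of all genes were called higher. The log2 fold change of *Acta2* in *Ccnc* KO cells was 3.29 to 3.91 over all fits that left out a clone or a WT replicate.

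The clones of a knockout differed from each other by more than the spread that remained after treatment. In an F test over the 3 *Ccnc* KO clones, 4 of the 9 genes tested were called, *Acta1*, *Acta2*, *Tagln* and *Cnn1*, against 0.793% of all genes. The highest clone was above the lowest by 2.03 for *Acta1*, 1.08 for *Acta2*, 1.02 for *Tagln* and 1.09 for *Cnn1* on the log2 scale (edgeR adjusted p 0.000153 to 0.00939). In each of these genes the high clone was H5, and without it 0 of the 9 were called (0 with an unadjusted p under 0.05, and 0.721% of all genes called). In the *Cdk8* KO clones 9 of the 9 genes tested were called, against 32.5% of all genes. The test compares cell lines, and 2 libraries of a clone are not independent samples of its genotype.

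In the *Cdk8* KO clones *Acta2* had the lowest p of all 17162 genes in that test (range of the clones 5.51 on the log2 scale, edgeR adjusted p = 4.20e-14), and *Tagln* the next lowest (4.45, 8.76e-14). Clone B9 had 4.61 CPM of *Acta2* under DMSO and 4.23 under ATRi, clone C8 had 40.9 and 47.0, and clone H4 had 193 and 211. Relative to WT this was 2.47-fold in B9, 24.6-fold in C8 and 113-fold in H4. For *Tagln* the levels under DMSO were 5.50, 29.6 and 121 CPM in B9, C8 and H4, and the folds over WT 1.31, 6.74 and 28.5. The same order, B9 below C8 below H4, held for every one of the 10 genes, with *Actg2* at or below 8 counts in B9 and C8.

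*Ccnc* KO clones D1 and G2 lay close together, with *Acta2* at 10.2-fold and 9.22-fold over WT, and H5 was at 19.5-fold. For *Acta1* the folds were 5.08, 3.76 and 15.3 in D1, G2 and H5, and for *Cnn1* 1.89, 1.96 and 4.02. *Myl9* was alike in the 3 clones, at 2.18-fold, 2.24-fold and 2.53-fold, and its clone test gave an edgeR adjusted p of 0.789. The median over the 10 genes of the log2 ratio to WT was 0.93 in D1, 0.66 in G2 and 1.33 in H5, and 0.17 in B9, 1.26 in C8 and 3.23 in H4, while over all genes tested it was between -0.01 and 0.01 in each clone. Of the 10 genes, 10, 9 and 10 were higher than WT in D1, G2 and H5, and 7, 10 and 10 in B9, C8 and H4. The share of all genes higher than WT was not counted for each clone, so these counts are a description only. Both they and the medians over the 10 genes include *Actg2*, which had 6 counts in B9 against 5 in WT.

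**Figure D3:**
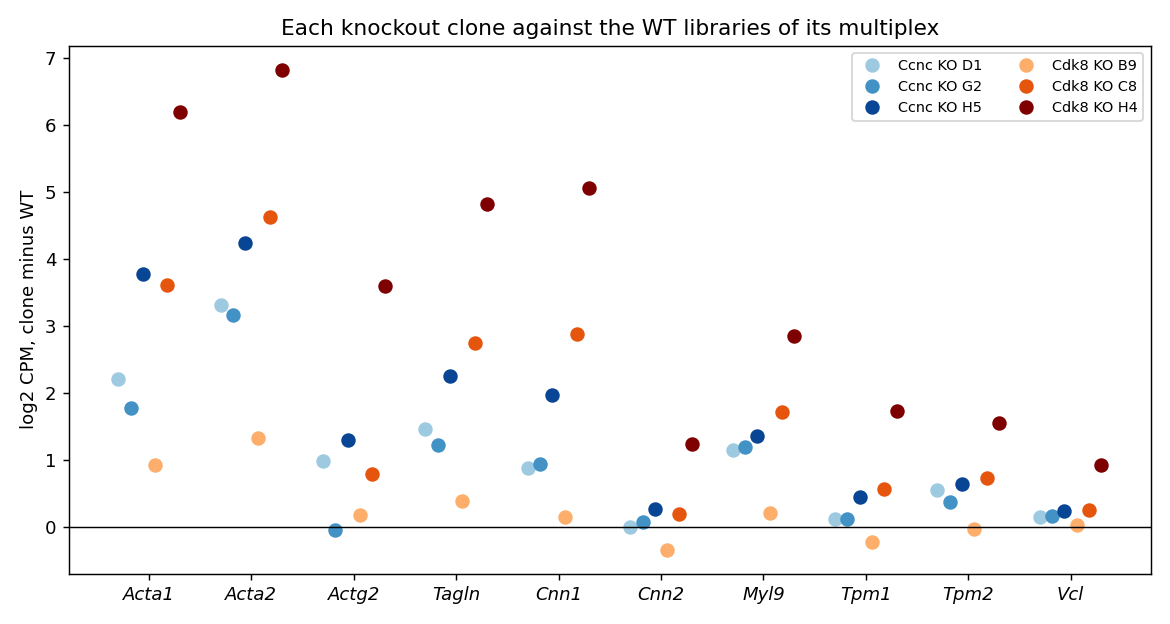
Log2 CPM of each knockout clone minus the WT libraries of its own multiplex, as the mean over the clone's DMSO and AZD6738 libraries. *Acta2* is 1.33 in B9 and 6.83 in H4, and the *Ccnc* KO clones lie between B9 and H4 for every gene except *Actg2*, where G2 is below B9 (-0.03 against 0.18).

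The *Ccnc* KO clones and the *Cdk8* KO clones were compared through each clone's log2 ratio to the WT libraries of its own multiplex. For *Acta2* the mean was 3.58 ± 0.58 in *Ccnc* KO and 4.26 ± 2.77 in *Cdk8* KO (SD, n = 3 clones each), a difference of 0.68 (p = 0.7, two-sided exact permutation test). Over the 10 genes the differences (*Cdk8* KO minus *Ccnc* KO) were between 0.22 and 1.44, and the exact permutation p was 0.4 to 0.8 (0.778 to 0.8 after Benjamini-Hochberg adjustment). A design of 3 against 3 clones cannot give a p below 0.1, and the clones B9 and H4 lay on either side of the *Ccnc* KO clones for *Acta2*.

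ATR inhibition for 4 h was accompanied by small differences. In the model with genotype, 0 of 9 genes were called beside *Ccnc* KO (1.11% of all genes were, in either direction) and 0 of 10 beside *Cdk8* KO (0.0855%). In the *Ccnc* multiplex 2 genes had an unadjusted p under 0.05, *Myl9* with a log2 difference of -0.26 and *Vcl* with 0.18, where 16.2% of all genes had one, and DESeq2 called *Vcl* (0.19, adjusted p = 0.0367, where it called 2.17% of all genes). In the *Cdk8* multiplex none had an unadjusted p under 0.05 (11.5% of all genes did). DESeq2 called 0 there, where it called 140 of 29764 genes higher and 214 lower. The treated and untreated libraries come from the same cell lines, and with clone or WT replicate as a block 3 of 10 genes were called in the *Cdk8* multiplex, against 11.3% of all genes. These were *Vcl* (0.20, SE 0.037, edgeR adjusted p = 0.00400), *Tpm1* (0.13, 0.0188) and *Cnn2* (0.12, 0.0379).

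*Vcl* was higher under ATRi than under DMSO in all 6 clones, by 0.11, 0.32 and 0.10 in D1, G2 and H5 and by 0.12, 0.33 and 0.16 in B9, C8 and H4 on the log2 scale. It was also higher in WT replicate 1, at 116 against 98.6 CPM in the run with *Ccnc* KO and 115 against 102 in the run with *Cdk8* KO. *Tpm1* was higher in all 6 clones as well, by 0.04 to 0.19. *Acta2*, the gene with the largest knockout effect, moved by -0.12 to 0.20 in the clones, and its fitted ATRi effect was -0.05 beside *Ccnc* KO and 0.03 beside *Cdk8* KO.

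Within the knockout clones alone, 0 of 9 genes were called in *Ccnc* KO (1 had an unadjusted p under 0.05, *Vcl*, as did 12.6% of all genes, and 0.0894% were called) and 0 of 9 in *Cdk8* KO (0 with an unadjusted p under 0.05, against 5.94% of all genes, of which 0.0% were called). DESeq2 called 0 of them in either. It called 120 of 28487 genes higher and 76 lower in *Ccnc* KO, and 14 of 28976 higher and 34 lower in *Cdk8* KO. With the clone as a block 2 were called in *Cdk8* KO, *Vcl* (0.20, edgeR adjusted p = 0.0148) and *Tpm1* (0.15, 0.0296), against 6.95% of all genes. The interaction of genotype and ATRi was called for 0 genes of this set in both multiplexes (0 with an unadjusted p under 0.05 and 0 by DESeq2), as for 0.0% of all genes in each, of which 2.13% beside *Ccnc* KO and 1.36% beside *Cdk8* KO had an unadjusted p under 0.05. Only 1 WT library under ATRi enters each of these fits.

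**Figure D4:**
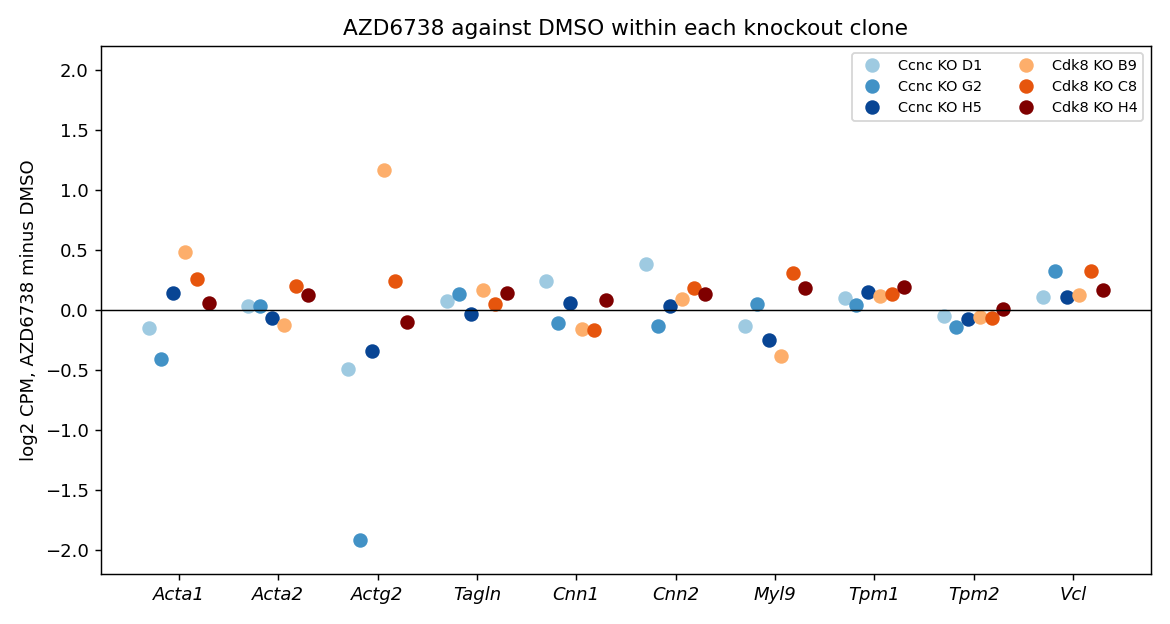
Log2 CPM under AZD6738 minus DMSO for each gene within each knockout clone. *Vcl* and *Tpm1* are above 0 in all 6 clones, and the widest points belong to *Actg2*, which has at most 11 counts in every clone except H4.

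The SRF regulators and the other genes of the pathway were taken from lists of their own, also chosen with earlier results of these data known. *Srf* had 59.6 to 74.7 CPM in *Ccnc* KO and 71.0 to 78.2 in WT libraries (log2 difference -0.17, edgeR adjusted p = 0.0925), and 56.6 to 90.6 CPM in *Cdk8* KO against 70.3 to 78.8 in WT (-0.08, 0.774). It differed between the *Cdk8* KO clones by 0.54 (edgeR adjusted p = 5.51e-06), with 82.3 and 90.6 CPM in H4. The coactivator genes *Mrtfa* and *Mrtfb* had log2 differences of 0.00 and 0.11 in *Ccnc* KO and -0.02 and 0.10 in *Cdk8* KO, and their clone tests were not called. *Myocd*, the coactivator restricted to heart and smooth muscle, had at most 13 counts in any library used and was not tested. Its counts were 4 to 13 in *Cdk8* KO and 0 to 11 in *Ccnc* KO libraries, against 0 to 3 in the WT libraries of each multiplex. The WT library left out had 5 counts of *Myocd* in the *Cdk8* run.

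Of the actins outside the set, *Actc1* (cardiac alpha-actin) was higher in *Ccnc* KO cells. It had 0.0626 to 0.103 CPM in WT, which is 3 or 4 counts per library, and 0.450 to 1.78 CPM in *Ccnc* KO libraries, with a log2 fold change of 3.61 (SE 0.58, edgeR adjusted p = 0.00100). It passed the filter on low counts through the knockout libraries alone, where it was high, so this call is a description and not support of its own. In *Cdk8* KO libraries *Actc1* had 0.0412 to 10.6 CPM, against 0 to 2 counts in WT libraries, and the clones differed by 6.70 (edgeR adjusted p = 8.47e-10). The cytoplasmic actins *Actb* and *Actg1*, which make up most actin in non-muscle cells, did not pass the threshold. *Actb* had log2 differences of -0.12 in *Ccnc* KO (edgeR adjusted p = 0.124) and -0.18 in *Cdk8* KO (0.0645), and *Actg1* had 0.18 (0.124) and 0.23 (0.196).

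Among 26 other SRF-MRTF targets, 10 rose and 1 fell in *Ccnc* KO cells, where 7.01% of all genes rose and 5.28% fell, and their median log2 fold change was 0.26. In *Cdk8* KO cells 0 of 26 were called (12 with an unadjusted p under 0.05, against 21.3% of all genes), with a median of 0.40 and 25 of 26 above 0. Genes called in *Ccnc* KO cells, named here after their values were seen, included *Fhl2* (a LIM-domain cofactor, log2 fold change 1.99, edgeR adjusted p = 0.00606), *Lmod1* (leiomodin 1, an actin nucleator of smooth muscle, 1.33, 0.0456) and *Cald1* (caldesmon, 1.01, 0.00127), and *Lima1* fell by 0.67 (7.25e-05). In the clone test 23 of the 26 were called in *Cdk8* KO, where 32.5% of all genes were, and 2 of 25 in *Ccnc* KO, where 0.793% were. *Egr1*, the TCF-type target, was lower, with log2 fold changes of -1.37 in *Ccnc* KO (edgeR adjusted p = 7.57e-06) and -1.35 in *Cdk8* KO (0.00122). It was the only one of the 6 TCF-type targets tested that was called in either. These 6 include *Srf* itself, given above as a regulator, and *Egr2* was not tested. All genes called lower made up 2.03% of those tested in *Cdk8* KO cells.

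Markers of other cell types were examined beside these changes, in lists that were also chosen with earlier results of these data known. Of 7 primitive endoderm markers, such as *Gata6* and *Sox17*, 6 rose in *Ccnc* KO and 7 in *Cdk8* KO, against 7.01% and 2.28% of all genes tested. Their summed level was 14.9 to 21.1 CPM in WT and 47.7 to 79.9 in *Ccnc* KO libraries, and 15.0 to 21.2 in WT and 59.3 to 134 in *Cdk8* KO libraries. Across clones the order was not that of the actin genes, since C8 had the highest sum (117 to 134 CPM) and H4 the lowest of the *Cdk8* KO clones (59.3 to 60.7), and H5 the lowest of the *Ccnc* KO clones (47.7 to 55.2). The mESC markers had summed levels of 3409 to 3799 CPM in *Ccnc* KO and 4024 to 4314 in WT libraries, and 2910 to 3764 in *Cdk8* KO and 3954 to 4252 in WT libraries, lowest in H4. Of these 8 markers, 5 were called lower in *Ccnc* KO and 3 in *Cdk8* KO, against 5.28% and 2.03% of all genes tested.

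The 6 markers of mature smooth muscle summed to 68.1 to 79.8 CPM in *Ccnc* KO and 62.9 to 73.3 in WT libraries, and to 114 to 118 CPM in H4, where clones B9 and C8 had 64.9 to 75.2 and WT 61.9 to 65.0. Most of this sum was *Smtn*, at 51.9 CPM or more in every library, while *Myh11*, the smooth-muscle myosin heavy chain, had at most 0.676 CPM in *Ccnc* KO and 1.63 CPM in *Cdk8* KO libraries. *Smtn*, *Myh11*, *Lmod1* and *Des* are also among the other SRF-MRTF targets above. In H4 *Lmod1* had 4.06 and 5.19 CPM against 0.103 to 0.456 in WT, and *Myh11* 1.41 and 1.63 against 0.176 to 0.334. *Des* in H4 (9.33 and 10.4 CPM) was near WT (7.06 to 9.82). *Myocd* was at 0 in some WT libraries of both multiplexes. The 7 fibroblast markers summed to 25.8 to 29.8 CPM in H4 and to 12.1 to 13.4 in B9 and C8, against 9.18 to 10.7 in WT, and *Postn* was at 0 in all WT libraries used. Their sums were 11.3 to 15.7 CPM in *Ccnc* KO libraries, highest in H5, against 10.1 to 10.7 in WT. *Col1a1* was the largest part of the H4 sums, at 14.3 and 16.8 CPM. Not all 7 rose in H4, since *Thy1* was within the WT range there (1.982 and 1.985 CPM) and higher in B9 and C8 (3.25 to 5.83). The 6 mesoderm markers summed to 11.5 to 14.5 CPM in *Ccnc* KO, 10.6 to 15.4 in *Cdk8* KO and 9.58 to 11.3 in WT libraries. The part of any of these cell types in the changes of the actin genes was not tested.

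**Figure D5:**
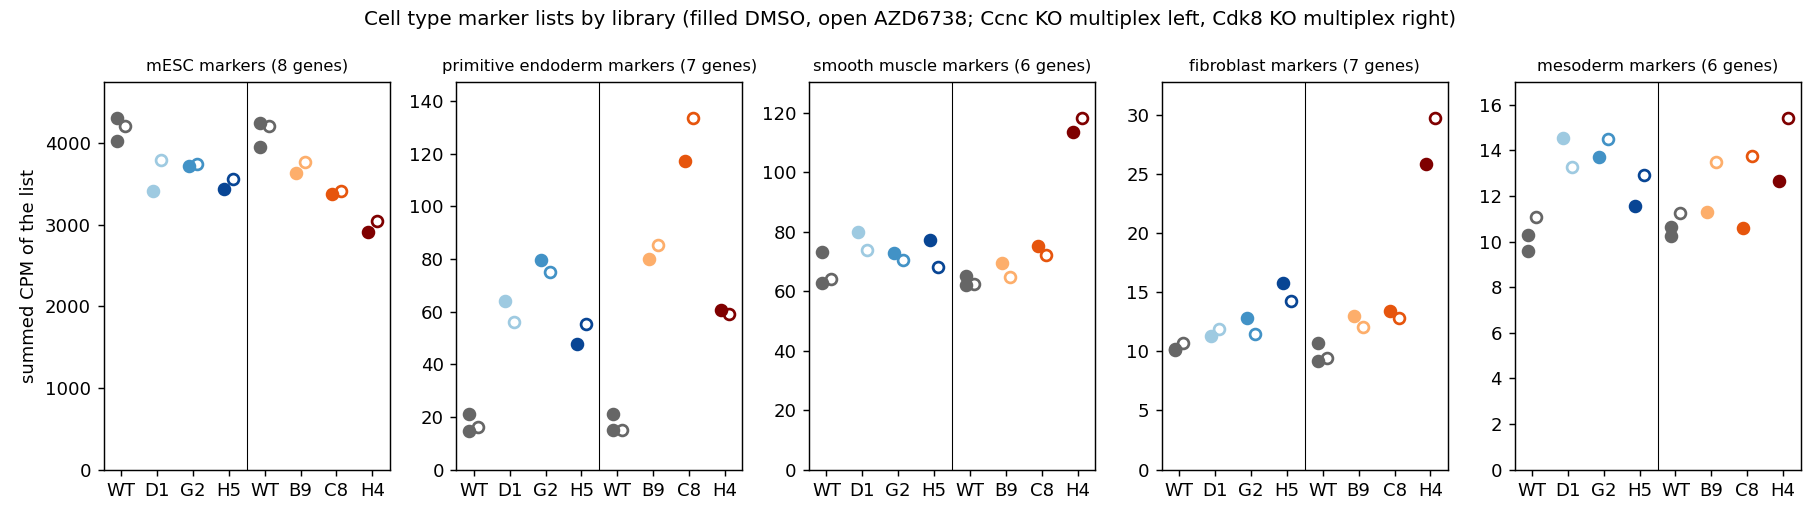
Summed CPM of 5 cell type marker lists in each library, by clone, with WT and the *Ccnc* KO clones left of the line and WT and the *Cdk8* KO clones right of it in each panel. Fibroblast and smooth-muscle marker sums are highest in H4, whereas primitive endoderm marker sums are highest in C8 (117 to 134 CPM).

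Genes outside the set with the most similar pattern were found by the correlation of their log2 CPM with the mean standardised log2 CPM of the 10 genes, over the 9 libraries of each multiplex, among 13351 genes with a mean of at least 1 CPM in both. The 5 with the highest value of the smaller correlation were *Krt18* (r = 0.98 and 0.98 in the *Ccnc* and *Cdk8* multiplexes), *Anxa1* (0.99 and 0.97), *Gbp2b* (0.97 and 0.97), *Krt7* (0.97 and 0.97) and *Krt19* (0.96 and 0.98). The libraries share WT cells, and both libraries of a clone are 1 cell line, so these values describe few independent points. *Krt18*, *Krt19* and *Krt7* encode keratins of simple epithelia. *Krt18* had 5.12 to 6.23 CPM in WT libraries of the *Cdk8* multiplex, 10.6 and 10.8 in B9, 22.6 and 23.4 in C8 and 103 and 106 in H4, the order of the actin genes.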

How the data were processed

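RNA-seq was performed in 20 libraries, 10 per multiplex, each run on 2 lanes. The authors trimmed single-end reads with Trimmomatic 0.38, aligned them to GRCm38.p6 with HISAT2 2.1.0 and deposited whole-number counts per gene from featureCounts 2.0.1 with reverse-strand counting. Their rlog tables were not used. Lanes were summed and every sample's group was taken from the labels. Counts were fitted per multiplex with edgeR 4.0.16 in R 4.3.3 (TMM, filterByExpr, quasi-likelihood test). P-values were adjusted by Benjamini-Hochberg over all genes tested, and genes were called at an adjusted p under 0.05. A test on simulated data recovered 200 of 200 changed genes among 18214 for the knockout effect, with 12 false calls. It recovered 171 of 200 among 18189 for the interaction, with 9 false calls. The simulated libraries were independent and had no differences between clones, and only genes with high counts were changed. The recovery therefore does not give the power of the tests for these clones or for genes with few counts. DESeq2 1.42.0, the authors' tool, and limma 3.58.1 (voom with a correlation within clones) were alternatives, beside other size factors, a looser filter, all 4 WT libraries, DMSO libraries alone and leaving out each clone or WT replicate. The library of WT replicate 2 under ATRi was left out because the authors left it out.

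Log2 CPM used a prior count of 2. Intervals and floors (3 counts) cover counting error only. WT replicates are labelled biological replicates, and each knockout replicate is a separate clone. Libraries of the same clone deviated together from their group means (r = 0.28, 0.06 and 0.30 in D1, G2 and H5, and 0.81, 0.45 and 0.87 in B9, C8 and H4), and they are paired because they come from the same cell line. The 10 genes and the pathway and marker lists were chosen with earlier results of these data known. Named genes were the 10 genes, every regulator and other actin on the lists, up to 6 other targets called in both knockouts (there were 0) and the 5 genes with the most similar pattern. Other targets and markers named with values, such as *Fhl2*, *Lmod1*, *Cald1*, *Lima1* and *Egr1*, fall outside this rule and were chosen after their values were seen. Exon lengths came from GENCODE gene models of the same build.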

Additional observations from a re-analysis of the deposited data

Results flagged for a closer look

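The clones of a knockout differed in 13 tests, by an edgeR F test over the 3 clones. On the log2 scale, the range of the *Ccnc* KO clones was 2.03 for *Acta1*, 1.08 for *Acta2*, 1.02 for *Tagln* and 1.09 for *Cnn1*, with H5 as the highest clone in each. The range of the *Cdk8* KO clones was 5.34 for *Acta1*, 5.51 for *Acta2*, 4.45 for *Tagln*, 4.95 for *Cnn1*, 1.58 for *Cnn2*, 2.63 for *Myl9*, 1.95 for *Tpm1*, 1.59 for *Tpm2* and 0.889 for *Vcl*, with H4 as the highest and B9 as the lowest clone in each.

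The library of WT replicate 2 under ATRi was used only in the fits with all 4 WT libraries. It was above all other WT libraries of its multiplex for 8 of the 10 genes in both runs. In the *Ccnc* and *Cdk8* runs it had 0.667 and 0.688 CPM of *Acta1*, 4.06 and 3.66 of *Acta2*, 8.83 and 9.28 of *Tagln*, 1.75 and 1.63 of *Cnn1*, and 9.94 and 8.85 of *Myl9*. For the widely expressed genes it had 113 and 108 CPM of *Cnn2*, 123 and 120 of *Tpm1*, and 123 and 121 of *Vcl*. Both runs sequenced the same WT sample, so the second value is not an independent sample, and what sets it apart was not tested.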

How the results depend on the processing

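The number of the 10 genes called in *Ccnc* KO cells was 2 to 8 when 1 clone or WT replicate was left out, lowest without WT replicate 1. The number in *Cdk8* KO cells, 0 in the fit reported, was 4 with DESeq2 and 2 with all 4 WT libraries. It was 5 with every gene that had at least 1 count, where 651 of 29765 genes were called higher. When 1 clone or WT replicate 2 was left out, it was 0 to 6. The clone test called 0 to 5 genes in *Ccnc* KO when 1 clone was left out, lowest without H5. For ATRi, DESeq2 called 1 gene in the *Ccnc* multiplex, and the fit with clone as a replicate block called 3 in the *Cdk8* multiplex and 2 in the *Cdk8* KO clones alone. The block, which also covers the knockout effect with clone as a random effect in limma, changed the number of calls in no other comparison by more than 1.5 times, but left 0 of 10 genes with an unadjusted p under 0.05 in *Cdk8* KO, against 6 without it. The cause of these shifts was not tested. Signs changed for *Cnn2* against WT when a line was left out (-0.11 to 0.23 in *Ccnc* KO and -0.0541 to 0.80 in *Cdk8* KO). Signs of the ATRi effect changed for *Acta2* with all 4 WT libraries in the *Ccnc* multiplex (0.18), for *Acta2* with DESeq2 (-0.0692) or a line left out (-0.0226 to 0.14) and for *Myl9* with a line left out (-0.0316 to 0.17) in the *Cdk8* multiplex, and for *Cnn2* with a line left out in the *Ccnc* multiplex (-0.0701 to 0.0935). Over all ATRi and interaction values, 40 of 485 changed sign, of which 0 were called. The interaction could not be fitted without WT replicate 1. *Actg2* has too few counts for a test in most fits.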
